A study of Mus musculus with 6 samples.

Results

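Fatty acid oxidation genes and targets of the peroxisome proliferator-activated receptors (PPARs) were described in 4T1 cells, a transplantable mouse mammary carcinoma line that the submitters describe as triple-negative. The set held 32 genes chosen by name for their place in these pathways, out of 28418 genes listed, and 26 of them reached a mean of 1 FPKM over the 6 libraries, as did 11741 genes in all. FPKM is a fragment count scaled for transcript length and sequencing depth, which makes levels roughly comparable between genes and between libraries. The main fit added no further scaling between libraries, and alternatives with such scaling are given at the end. The series held 3 libraries labelled 100 nM PFOS (perfluorooctane sulfonate, a fluorinated surfactant that persists in the environment) and 3 labelled 0 nM, all from cells kept at that dose through 35 passages, a model of chronic exposure. Separate cultures within a dose are not stated, so p-values reflect only how far these samples spread, which may be technical.

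Fatty acids enter mitochondria as carnitine esters and are then shortened in repeated rounds of dehydrogenation, hydration, a second dehydrogenation and thiolysis, and the electrons of the first step pass through electron transfer flavoprotein to the respiratory chain. PPARs are nuclear receptors that bind DNA with a retinoid X receptor (RXR) partner, are activated by fatty acids and raise the transcription of many of these enzymes and of lipid-binding and lipid droplet proteins. In rodent liver, PFOS is known as an activator of PPAR alpha, and liver responds to such activators with more peroxisomes and more fatty acid oxidation enzymes.

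Library sums lay between 306716 and 309381 FPKM, and log2 profiles of the tested genes correlated at 0.988 to 0.994 within doses and at 0.984 to 0.993 between them. Replicate 3 at 100 nM stood apart on the first principal component, with a score of 19.4 against -9.57 to 0.06 in the other 5 libraries. Of 12 leukocyte markers 5 were tested and 0 passed the limma test, at an unadjusted p under 0.05 as well. Gzmb was among the tested only through replicate 3 at 100 nM, at 14.94 FPKM against at most 0.05 FPKM elsewhere. A rise in 1 library widens the spread, so the limma test cannot decide on such a rise. The summed level of the 12 was 18.2, 18.7 and 100 FPKM in replicates 1, 2 and 3 at 100 nM. At 0 nM the sum was 20.8 to 30.3 FPKM. Cd14 alone held 65.16 FPKM of the sum in replicate 3 at 100 nM. In that library 2 of the 12 were at 0, against 5 or 6 in the others. The cells carried their epithelial label in the data, with 9 of 9 epithelial markers reaching 1 FPKM and Krt8, a simple epithelial keratin, at 303 ± 12 FPKM at 100 nM and 290 ± 0.950 FPKM at 0 nM (SD, n = 3 each). Of the 9, Cdh1, Krt7 and Krt19 rose (limma adjusted p under 0.05; 3 of 9, beside 1.69% of all genes), and means were higher at 100 nM for 7 and lower for 2, Cldn4 and Cldn7. The 3 of 6 adipocyte markers that were analysed, Retn, Plin1 and Cidec, did not exceed 0.03 FPKM in any library. Of 9 endothelial and fibroblast markers 2 were tested and 0 passed the limma test, 1 of them at an unadjusted p under 0.05, and their sum was 5.15, 5.53 and 8.74 FPKM at 100 nM against 4.91 to 5.15 FPKM at 0 nM.

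At 100 nM PFOS, transcript levels of the set lay close to those at 0 nM. Of the 26 tested members, 0 passed the limma test at a Benjamini-Hochberg adjusted p under 0.05 taken over all tested genes, where 4.15% of all genes passed, 1.69% as higher and 2.46% as lower. At an unadjusted p under 0.05 there were 5 of 26, or 19.2%, beside 20.7% of all genes. The 3 libraries at 100 nM did not overlap the 3 at 0 nM for 5 of 26 members, again 19.2%, beside 26.9% of all genes, so both counts lie near or under the background. The 5 were Acadl, Cpt1a, Acaa2 and Angptl4, lower at 100 nM (4 of 26, beside 13.3% of all genes), and Plin2, higher (1 of 26, beside 13.7%). The median difference of the members, 100 nM minus 0 nM, was 0.01 on the log2(FPKM + 1) scale, beside 0.005 over all genes, and the median absolute difference was 0.05 beside 0.06. A difference on this scale understates the change of low genes.

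**Figure D1:**
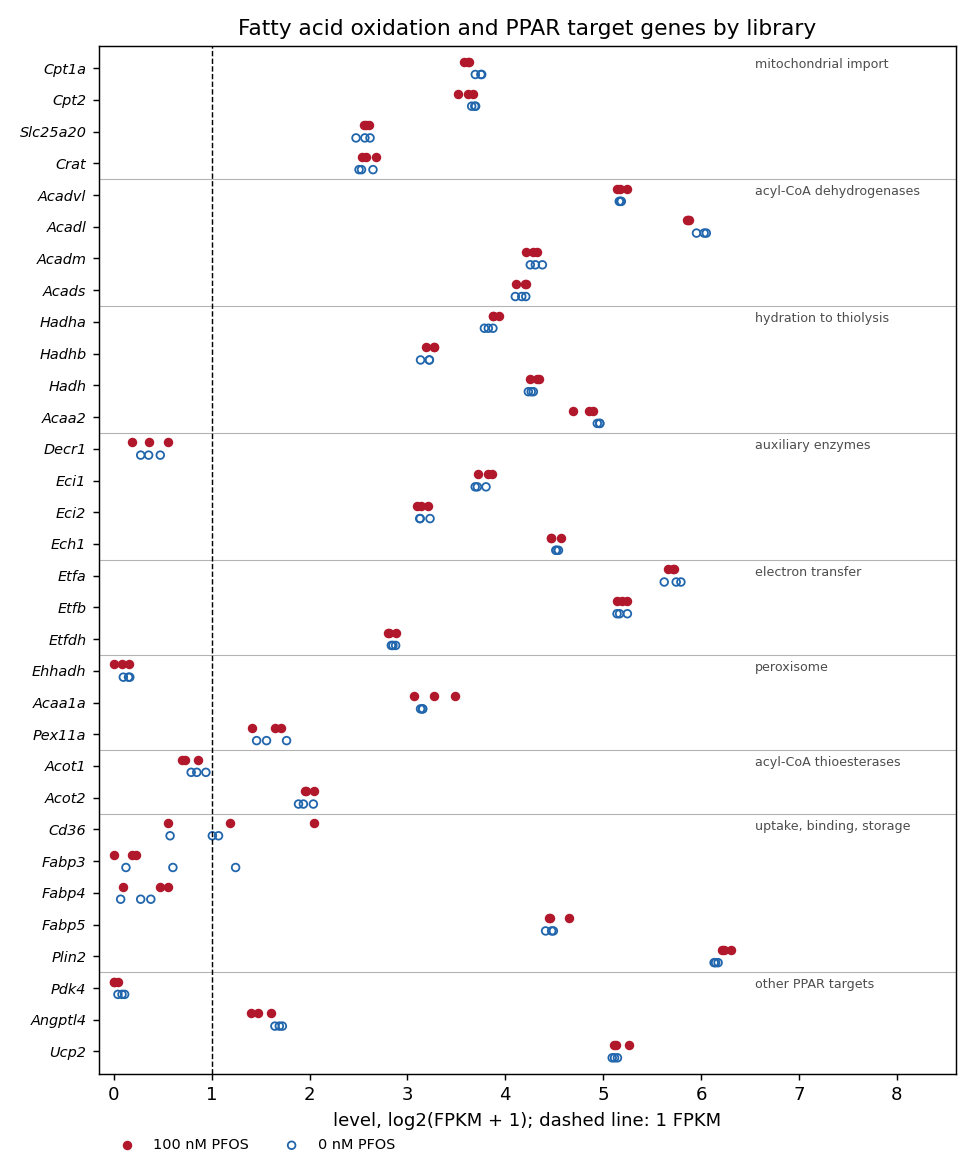
Level of each of the 32 genes in each library, as log2(FPKM + 1), with filled red points for the 3 libraries at 100 nM PFOS, open blue points for the 3 at 0 nM, and a dashed line at 1 FPKM; genes are ordered by role. Plin2 and Acadl stand highest, and Ehhadh, Pdk4, Fabp4, Decr1, Fabp3 and Acot1 lie below the line on average.

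The 95% intervals of the members' differences show the size of change that these libraries could resolve. For 21 of 26 members, or 80.8%, the whole interval lay inside 1.2-fold either way in FPKM + 1 (0.26 on its log2 scale). The share over all genes was 73.5%. For low genes this bound takes in a larger change of FPKM itself, so both shares depend on gene levels. The 5 other members were Acaa2, Acaa1a, Pex11a, Cd36 and Angptl4. These intervals are from limma, are not adjusted for the number of genes, and the bound of 1.2-fold was chosen with the results known. The median standard error was 0.044 for members, beside 0.047 for all genes.

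**Figure D2:**
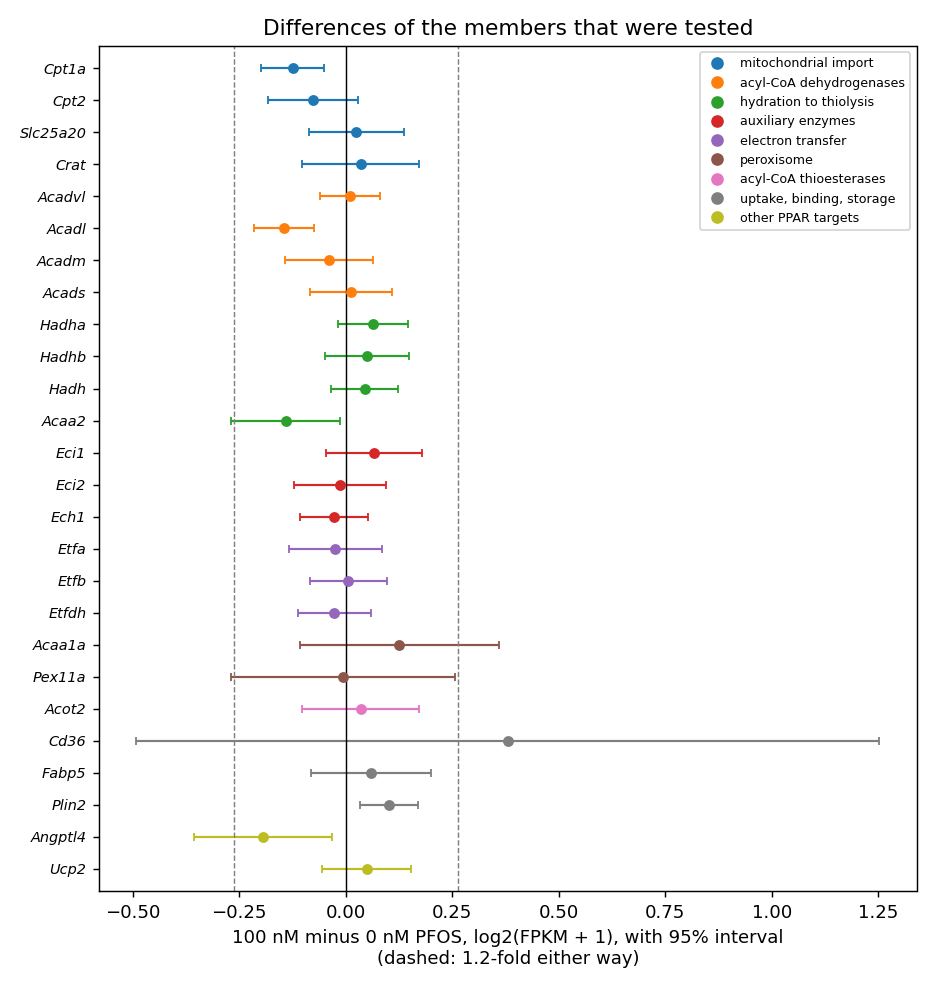
Difference of each of the 26 tested members, 100 nM minus 0 nM PFOS, on the log2(FPKM + 1) scale. Bars give the unadjusted 95% interval from limma, and colours give the role. Dashed lines mark 1.2-fold either way in FPKM + 1. 5 intervals leave out 0, those of Cpt1a, Acadl, Acaa2, Angptl4 and Plin2, and the interval of Cd36, which was tested only through replicate 3 at 100 nM, is the widest.

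Promoter sequence bears on PPAR control because the PPAR and RXR pair binds direct repeats of the hexamer AGGTCA with 1 base between them. RefSeq promoter windows of GRCm38.p6, from 250 bases before to 50 after a gene's start, were matched for 26 of the 32 genes and searched on both strands with up to 2 mismatches in the 12 fixed bases. Acaa2, Angptl4, Crat, Fabp5, Decr1 and Fabp4 had no window and were not searched. The 26 genes searched are therefore not the same as the 26 tested members. A match was found in 4 of the 26 windows, or 15.4%, those of Plin2, Cd36, Etfa and Slc25a20, beside 3.9% of all 32851 windows in the table. The exact hexamer stood in 5 of the 26, or 19.2%, beside 16.3% of all windows, and no member window held an exact repeat. A match is a description and not a binding site, and windows without one say only that these letters are not there. The Plin2, Cd36 and Etfa stretches are shown because each match lies before the RefSeq start of its window; capitals mark the match, which in all 3 lies on the strand opposite to the gene. The Plin2 stretch (chr4:86670247-86670309, minus strand) and the Etfa stretch (chr9:55512283-55512345, minus strand) overlap no annotated gene in GENCODE M21 (RefSeq sequence of GRCm38.p6 for all 3), and the Cd36 stretch (chr5:17835922-17835984, minus strand) precedes an internal start and lies inside Cd36 as GENCODE M21 annotates it (17781690 to 17888801), in a part that is not exonic. 
Plin2: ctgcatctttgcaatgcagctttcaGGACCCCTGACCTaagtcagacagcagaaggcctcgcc
Cd36: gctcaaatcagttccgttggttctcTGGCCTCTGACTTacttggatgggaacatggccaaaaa
Etfa: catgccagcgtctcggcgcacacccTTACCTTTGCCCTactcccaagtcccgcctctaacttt

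Transport into mitochondria begins with Cpt1a, the outer membrane carnitine palmitoyltransferase that is the rate-controlling step of long-chain oxidation. Cpt1a (ENSMUSG00000024900, chromosome 19, 3322334 to 3385733) stood at 11.33, 11.35 and 10.95 FPKM at 100 nM, against 12.54, 11.94 and 12.46 FPKM at 0 nM. The 3 libraries at 100 nM all lay below the 3 at 0 nM, by 9.0% on the means. The limma difference came to -0.12 ± 0.03 (SE, log2(FPKM + 1) scale) at an adjusted p of 0.0802, which ranged from 0.0599 to 0.297 over 18 alternatives of the processing. Cpt2, the inner membrane transferase that returns the acyl chain to coenzyme A, averaged 11.2 ± 0.671 FPKM at 100 nM and 11.8 ± 0.189 FPKM at 0 nM (SD, n = 3 each), and the groups overlapped. The carnitine-acylcarnitine carrier Slc25a20 averaged 4.97 ± 0.111 FPKM at 100 nM and 4.87 ± 0.293 FPKM at 0 nM, and carnitine acetyltransferase, Crat, averaged 5.06 ± 0.316 FPKM at 100 nM and 4.91 ± 0.316 FPKM at 0 nM (SD, n = 3 each). Cpt1a and Cpt2 were at nearly the same level, with a ratio of 1.00 ± 0.043 at 100 nM and 1.04 ± 0.035 at 0 nM (SD, n = 3 each).

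Among the acyl-CoA dehydrogenases, which start each round and differ in the chain length they accept, the long-chain enzyme gene Acadl was the highest and had the smallest p-value of the set. Acadl (ENSMUSG00000026003, chromosome 1, 66830839 to 66863277) stood at 56.93, 57.91 and 57.45 FPKM at 100 nM, against 60.98, 65.44 and 64.43 FPKM at 0 nM. The libraries at 100 nM lay within 1 FPKM of each other and below all 3 at 0 nM. The means were 57.4 ± 0.490 FPKM at 100 nM and 63.6 ± 2.34 FPKM at 0 nM (SD, n = 3 each), and on the log2(FPKM + 1) scale they differed by -0.14 ± 0.03 (SE). The limma adjusted p was 0.0514, on the edge of the threshold, and Acadl passed in 7 of 18 alternatives, over all of which the adjusted p ranged from 0.0357 to 0.213. Without replicate 1 at 0 nM it passed (adjusted p = 0.0433), and without any other single library it did not. Acadvl, for very long chains, stood at 35.06, 34.34 and 36.77 FPKM at 100 nM, against 35.40, 34.87 and 35.14 FPKM at 0 nM. The Acadl level over the Acadvl level was 1.62 ± 0.062 at 100 nM and 1.81 ± 0.079 at 0 nM (SD, n = 3 each). Acadm, for medium chains, averaged 18.4 ± 0.743 FPKM at 100 nM and 18.9 ± 0.860 FPKM at 0 nM, and Acads, for short chains, averaged 17.0 ± 0.658 FPKM at 100 nM and 16.9 ± 0.665 FPKM at 0 nM (SD, n = 3 each). Groups overlapped for Acadvl, Acadm and Acads. Of the words of 31 bases in Acadvl, 33.2% also occur in Dvl2, which overlaps it on the opposite strand, so its level is less certain, and Acadl overlaps the annotated genes Gm15793 on its own strand and Gm27934 on the other.

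**Figure D3:**
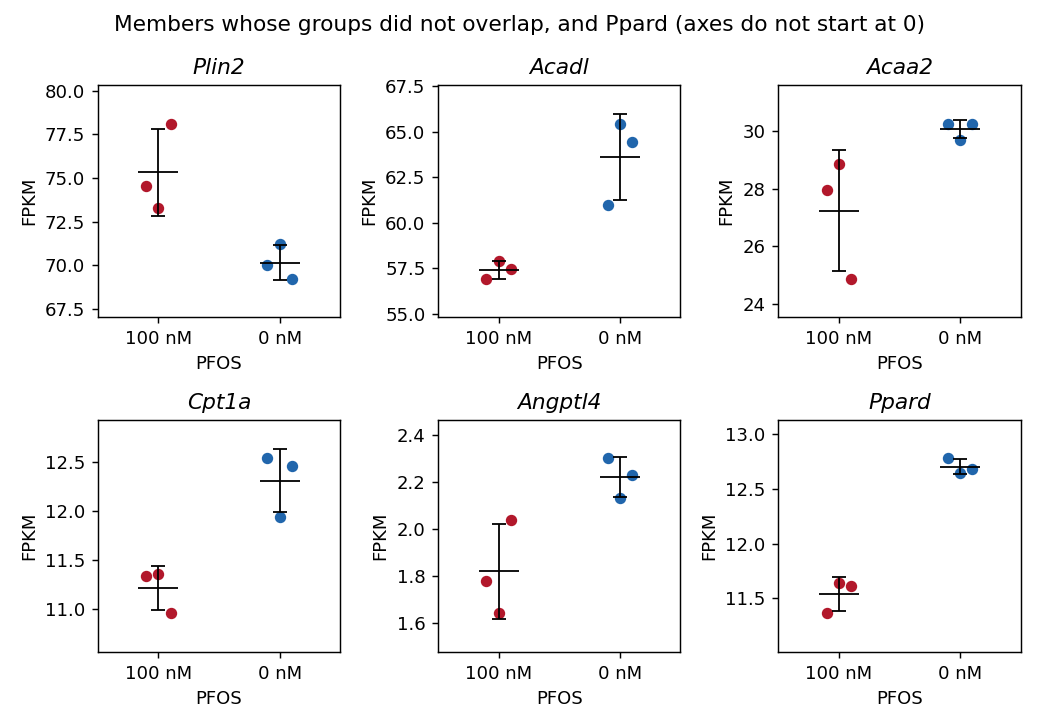
FPKM in each library for the 5 members whose groups did not overlap and for the receptor gene Ppard, with 100 nM PFOS left of 0 nM, bars for the mean and SD (n = 3), and axes that do not start at 0. Plin2 was higher at 100 nM in all 3 libraries, and Acadl, Acaa2, Cpt1a, Angptl4 and Ppard were lower in all 3.

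Hadha and Hadhb encode the alpha and beta subunits of the mitochondrial trifunctional protein, which carries out the later steps for long chains. Hadha averaged 13.9 ± 0.372 FPKM at 100 nM and 13.2 ± 0.431 FPKM at 0 nM, and Hadhb averaged 8.48 ± 0.318 FPKM at 100 nM and 8.16 ± 0.326 FPKM at 0 nM (SD, n = 3 each). Neither group pair was free of overlap, and the limma adjusted p-values were 0.342 and 0.553. The Hadha level over the Hadhb level was 1.57, 1.76 and 1.58 at 100 nM, against 1.58, 1.64 and 1.65 at 0 nM, so the ratio of the subunit transcripts overlapped between doses. Hadhb shares 23.7% of its words with other transcripts, most of them with Gm13910. The genes are divergent neighbours, and the 85 bases between their annotated first exons (chr5:30155163-30155247, plus strand, RefSeq sequence of GRCm38.p6) are shown because both promoters share them; capitals mark the 2 GC boxes, GGGCGG, a motif searched on both strands and present in 22.8% of all windows of the same length just before a start. 
Hadha and Hadhb: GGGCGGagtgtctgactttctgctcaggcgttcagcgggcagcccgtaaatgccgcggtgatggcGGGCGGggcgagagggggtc

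Hadh, the dehydrogenase for shorter hydroxyacyl chains, averaged 18.8 ± 0.655 FPKM at 100 nM and 18.2 ± 0.341 FPKM at 0 nM (SD, n = 3 each), with overlapping groups. Acaa2, a mitochondrial thiolase of the last step of a round (ENSMUSG00000036880, chromosome 18, 74779197 to 74806208), stood at 27.96, 28.86 and 24.87 FPKM at 100 nM, against 30.25, 29.70 and 30.23 FPKM at 0 nM. All 3 libraries at 100 nM were lower, with replicate 3 the lowest. On the log2(FPKM + 1) scale the groups differed by -0.14 ± 0.05 (SE; limma adjusted p = 0.204), and by -0.079 without replicate 3 at 100 nM (adjusted p = 0.192).

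Auxiliary enzymes make unsaturated chains fit for oxidation. Eci1 and Eci2, enoyl-CoA isomerases, averaged 12.97 ± 0.677 and 7.88 ± 0.347 FPKM at 100 nM, against 12.34 ± 0.546 and 7.96 ± 0.373 FPKM at 0 nM (SD, n = 3 each). Ech1, a dienoyl-CoA isomerase, stood at 21.17, 22.68 and 21.11 FPKM at 100 nM, against 22.02, 21.88 and 22.32 FPKM at 0 nM. Groups overlapped for all 3 genes. Decr1, the mitochondrial dienoyl-CoA reductase, was low throughout, at 0.14 to 0.47 FPKM at 100 nM and 0.21 to 0.39 FPKM at 0 nM, and was not tested.

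Electron transfer flavoprotein was among the higher parts of the pathway. Its alpha subunit gene Etfa stood at 49.56, 51.46 and 51.71 FPKM at 100 nM, against 52.68, 54.50 and 48.32 FPKM at 0 nM. Etfb, the beta subunit gene, stood at 34.36, 35.53 and 36.81 FPKM at 100 nM, against 34.95, 34.31 and 36.99 FPKM at 0 nM, and it shares 49.9% of its words with other transcripts, chiefly with Gm45233, an overlapping gene on the same strand. Both genes overlapped between doses, with limma adjusted p-values of 0.815 for Etfa and 0.950 for Etfb. Etfdh, the ubiquinone oxidoreductase that takes the electrons on, averaged 6.11 ± 0.217 FPKM at 100 nM and 6.24 ± 0.111 FPKM at 0 nM (SD, n = 3 each).

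Of the 3 peroxisomal members, 1 was too low to test and the groups of the other two overlapped. Ehhadh, the peroxisomal bifunctional enzyme and a PPAR alpha target in rodent liver, stood at 0.00 to 0.11 FPKM at 100 nM and 0.07 to 0.12 FPKM at 0 nM. Pex11a, which promotes peroxisome division, averaged 2.02 ± 0.317 FPKM at 100 nM and 2.03 ± 0.333 FPKM at 0 nM (SD, n = 3 each). Acaa1a, the peroxisomal thiolase, stood at 7.40, 8.63 and 10.20 FPKM at 100 nM, against 7.92, 7.78 and 7.90 FPKM at 0 nM. Its libraries at 0 nM were tight and replicate 3 at 100 nM was the highest. The difference on the log2(FPKM + 1) scale was 0.13 with all libraries (limma adjusted p = 0.520) and 0.021 without that replicate. Acaa1a shares 23.4% of its words with other transcripts, mostly with its paralog Acaa1b. It also overlaps Myd88 and Slc22a14 on the opposite strand, and how strand was counted is not given, so its level is less certain. The acyl-CoA thioesterase genes Acot1 and Acot2, which free fatty acids from coenzyme A in the cytosol and in mitochondria, are close paralogs, and Acot2 shares 37.8% and Acot1 22.8% of its words with other transcripts. Acot1 stood at 0.62 to 0.82 FPKM at 100 nM and 0.73 to 0.92 FPKM at 0 nM, just under the threshold for testing, and Acot2 averaged 2.97 ± 0.145 FPKM at 100 nM and 2.88 ± 0.210 FPKM at 0 nM (SD, n = 3 each).

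Plin2, which coats lipid droplets and follows the lipid load of a cell, had the highest level of the set. Plin2 (ENSMUSG00000028494, chromosome 4, 86648386 to 86670060) stood at 74.56, 73.30 and 78.11 FPKM at 100 nM, against 69.98, 71.23 and 69.22 FPKM at 0 nM. All 3 libraries at 100 nM were higher, by 7.4% on the means. On the log2(FPKM + 1) scale the groups differed by 0.10 ± 0.03 (SE). The limma adjusted p was 0.110, with a range of 0.0849 to 0.290 over 18 alternatives. Without replicate 3 at 100 nM, its highest library, the difference was 0.075 (limma adjusted p = 0.164). Fabp5, the fatty acid-binding protein of epithelia, stood at 20.82, 24.14 and 20.98 FPKM at 100 nM, against 21.49, 21.22 and 20.29 FPKM at 0 nM, with overlapping groups. Fabp3, the heart form, and Fabp4, the adipocyte and macrophage form, were low: Fabp3 stood at 0.00, 0.14 and 0.17 FPKM at 100 nM, against 0.52, 1.37 and 0.09 FPKM at 0 nM, and Fabp4 at 0.07, 0.39 and 0.47 FPKM at 100 nM, against 0.30, 0.21 and 0.05 FPKM at 0 nM. Neither was tested, and Fabp3 shares 50.1% of its words with other transcripts, mostly with the pseudogene Fabp3-ps1.

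Cd36, a fatty acid translocase of adipocytes, muscle, endothelium and macrophages, was the lowest of the members that were tested. Cd36 stood at 0.47, 1.28 and 3.14 FPKM at 100 nM, against 1.01, 1.1 and 0.49 FPKM at 0 nM. Replicate 3 at 100 nM was the highest and the remaining libraries overlapped. Cd36 reached the threshold for testing only through that replicate: its mean over the other 5 libraries was 0.870 FPKM, and without replicate 3 the mean at 100 nM was 0.875 FPKM, against 0.867 FPKM at 0 nM. It is counted among the 26 tested members, but without that library it was not tested, so its limma difference is given in the plot of differences as a description alone. In that library the T cell and natural killer cell gene Gzmb was at 14.94 FPKM and at most 0.05 FPKM elsewhere. The monocyte gene Cd14 was at 65.16 FPKM, against 8.41 to 24.14 FPKM in the other 5. These were the highest of the leukocyte markers there. Csf1r was at 7.57 FPKM against at most 6.2 elsewhere, Itgam at 2.7 against 2.14 and Adgre1 at 3.42 against 1.94. Ptprc, Cd3d, Cd3e, Cd8a and Nkg7 were at 0.66 to 2.58 FPKM, against at most 0.23 elsewhere. Cd79a and Ms4a1 were at 0 in that library. Fewer cells of a type and less RNA per cell cannot be told apart in bulk RNA, and the part of such transcripts in the Cd36 value was not tested. Cd36 was the member just inside the threshold of 1 FPKM, with a mean of 1.25 FPKM over the 6 libraries, and Acot1 was just outside, with 0.758 FPKM.

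**Figure D4:**
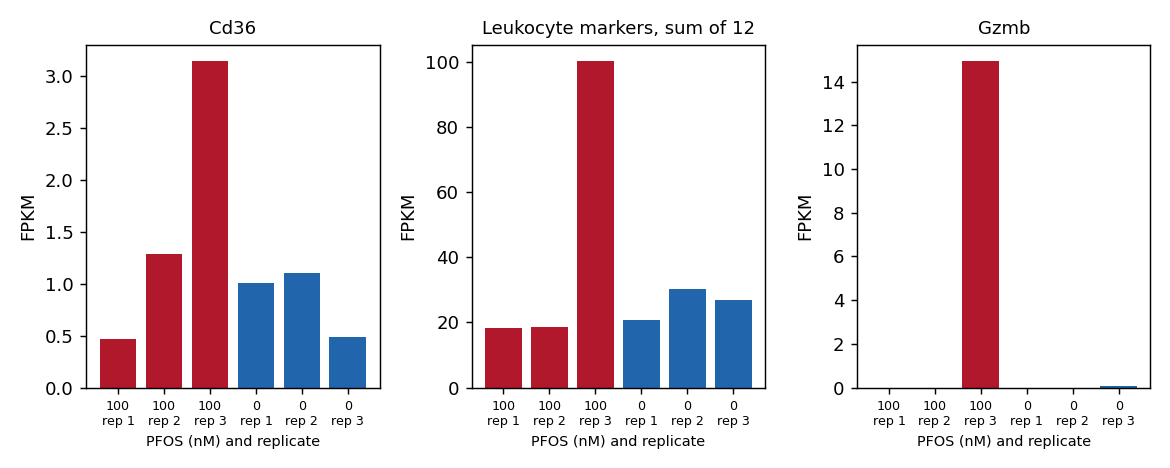
FPKM of Cd36, of the sum of 12 leukocyte markers and of Gzmb in each library, with the 3 libraries at 100 nM PFOS in red left of the 3 at 0 nM in blue. Replicate 3 at 100 nM is highest in each panel, at 3.14 FPKM for Cd36, 100 FPKM for the sum and 14.94 FPKM for Gzmb. Cd14 alone held 65.16 FPKM of that sum.

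The remaining PPAR targets of the set gave no common direction. Angptl4, a secreted inhibitor of lipoprotein lipase that PPARs induce (ENSMUSG00000002289, chromosome 17, 33773750 to 33781830), stood at 1.78, 1.64 and 2.04 FPKM at 100 nM, against 2.30, 2.13 and 2.23 FPKM at 0 nM. All 3 libraries at 100 nM were lower, by 18% on the means, or -0.19 ± 0.07 (SE) on the log2(FPKM + 1) scale, at a limma adjusted p of 0.172. Pdk4, the kinase that turns pyruvate dehydrogenase off when fat is burned, stood at 0.00, 0.03 and 0.00 FPKM at 100 nM, against 0.08, 0.06 and 0.03 FPKM at 0 nM, too low to test. Ucp2, an inner mitochondrial membrane carrier, stood at 33.53, 34.06 and 37.39 FPKM at 100 nM. At 0 nM it stood at 33.12, 33.69 and 34.41 FPKM, with overlapping groups (limma adjusted p = 0.572). The Ucp2 difference on the log2(FPKM + 1) scale was 0.05 with all libraries and 0.002 without replicate 3 at 100 nM.

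Summed by role, the 4 acyl-CoA dehydrogenase genes came to 128 ± 0.510 FPKM at 100 nM and 135 ± 3.37 FPKM at 0 nM (SD, n = 3 each), and Acadl made up most of the gap. The tested genes of uptake, binding and storage, Cd36, Fabp5 and Plin2, came to 98.9 ± 3.20 FPKM at 100 nM and 92.0 ± 1.82 FPKM at 0 nM (SD, n = 3 each). Plin2, at means of 75.3 and 70.1 FPKM, made up most of that gap. Cd36 entered the sum only through replicate 3 at 100 nM, so the filter itself added to the 100 nM side. Sums overlapped between doses for electron transfer, with 92.6 ± 2.13 FPKM at 100 nM and 93.5 ± 1.70 FPKM at 0 nM, and for the auxiliary enzymes, with 42.5 ± 1.57 FPKM at 100 nM and 42.4 ± 0.590 FPKM at 0 nM (SD, n = 3 each). These sums are descriptions, with no test.

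The receptors that act on these genes were read from a list of 6, of which Ppara and Rxrg were not analysed here. Ppard, the PPAR form found in most tissues (ENSMUSG00000002250, chromosome 17, 28232700 to 28301474), fell to 11.36, 11.64 and 11.61 FPKM at 100 nM, against 12.78, 12.65 and 12.68 FPKM at 0 nM. Its groups lay apart and each was tight, and they differed by -0.13 ± 0.03 (SE; log2(FPKM + 1) scale; limma adjusted p = 0.0441). The call was lost without any 1 of the 6 libraries, with an adjusted p of 0.0870 without replicate 3 at 100 nM, 0.115 and 0.120 without replicates 2 and 1 at 100 nM, and 0.125, 0.131 and 0.137 without replicates 3, 2 and 1 at 0 nM. It held in 8 of 18 alternatives. Pparg, the adipocyte form, was at most 0.09 FPKM at 100 nM and 0.07 FPKM at 0 nM. Rxra stood at 5.27, 5.87 and 5.35 FPKM at 100 nM, against 4.66, 4.77 and 4.81 FPKM at 0 nM, and Rxrb at 14.81, 14.51 and 14.38 FPKM at 100 nM, against 15.67, 15.11 and 16.58 FPKM at 0 nM. Neither passed (limma adjusted p = 0.0873 for Rxra and 0.170 for Rxrb). The groups of both lay apart, Rxra higher and Rxrb lower. Of all tested genes, 13.7% lay apart as higher and 13.3% as lower, so such a separation is common here. The Rxra level over the Rxrb level was 0.377 ± 0.025 at 100 nM and 0.301 ± 0.013 at 0 nM (SD, n = 3 each).

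Over 7 lists of other genes of these pathways, the receptors included, 104 of 111 genes were analysed and 66 tested. Among the 66, 1 passed as lower at 100 nM, which was Ppard, and 0 as higher. Of all tested genes, 4.15% passed the limma test and 20.7% had an unadjusted p under 0.05. In the receptor list 3 genes were tested, and 3 had an unadjusted p under 0.05. Of 13 PPAR coactivators and corepressors 12 were tested and 0 passed the limma test (1 at an unadjusted p under 0.05), with a median difference of 0.002. The coactivator gene Ncoa1 had the smallest p of these, at 2.95 ± 0.091 FPKM at 100 nM and 2.49 ± 0.021 FPKM at 0 nM (SD, n = 3 each; limma adjusted p = 0.0704). Of 28 other fatty acid oxidation enzymes 19 were tested and 0 passed (3 unadjusted), 13 of them with a higher and 6 with a lower mean at 100 nM. Acat1, the mitochondrial acetoacetyl-CoA thiolase, stood at 34.74, 36.20 and 34.80 FPKM at 100 nM, against 32.34, 32.73 and 32.29 FPKM at 0 nM (limma adjusted p = 0.0537, and under 0.05 in 3 of 18 alternatives). Of 26 other PPAR target genes 22 were analysed (Cyp4a10, Fabp2, Cidea and Ucp1 were not), of which 6 reached 1 FPKM and 0 passed (1 unadjusted). Pdk2, a second pyruvate dehydrogenase kinase gene, averaged 1.58 ± 0.065 FPKM at 100 nM and 1.29 ± 0.098 FPKM at 0 nM (SD, n = 3 each; limma adjusted p = 0.183). Of 13 acyl-CoA synthetases and fatty acid transporters 12 were analysed (Slc27a5 was not) and 7 tested, and 0 passed (0 unadjusted), and Acsl3 averaged 13.6 ± 0.391 FPKM at 100 nM and 12.8 ± 0.554 FPKM at 0 nM (SD, n = 3 each; limma adjusted p = 0.305). Of 10 other thioesterases 5 were tested and 0 passed (0 unadjusted), with Acot8, a peroxisomal thioesterase, at 3.74 ± 0.325 FPKM at 100 nM and 4.19 ± 0.137 FPKM at 0 nM (SD, n = 3 each; limma adjusted p = 0.258). Of 15 peroxisome assembly genes 14 were tested and 0 passed (1 unadjusted), and Pex5, the import receptor, averaged 13.2 ± 0.267 FPKM at 100 nM and 12.5 ± 0.196 FPKM at 0 nM (SD, n = 3 each; limma adjusted p = 0.223).

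Some members lie in chromosome stretches where most neighbouring genes lay on the same side, so each was set beside the tested protein-coding genes within 2.5 Mb of it, a comparison chosen after earlier results were known. Over all tested genes, 2.46% passed the limma test (adjusted p under 0.05) as lower and 1.69% as higher. Acaa2 lies on chromosome 18 among 17 such neighbours, of which 15 were lower at 100 nM and 5 passed as lower. Their median difference was -0.14, the same as that of Acaa2. Acadm lies on chromosome 3 among 11 neighbours, 11 of which were lower and 7 of which passed as lower. Their median was -0.27, while Acadm itself differed by -0.04 ± 0.04 (SE). Most neighbours were higher around Slc25a20 on chromosome 9 (75 of 86, with 7 passing as higher). The same held for Acaa1a on that chromosome (23 of 26, with 3 passing) and Acot2 on chromosome 12 (34 of 41, with 2 passing). Around Cpt1a 43 of 77 neighbours were higher, around Acadl 6 of 10, around Plin2 5 of 9 and around Angptl4 77 of 118, with medians between 0.005 and 0.04. The part of these stretches in the members' values was not tested.

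**Figure D5:**
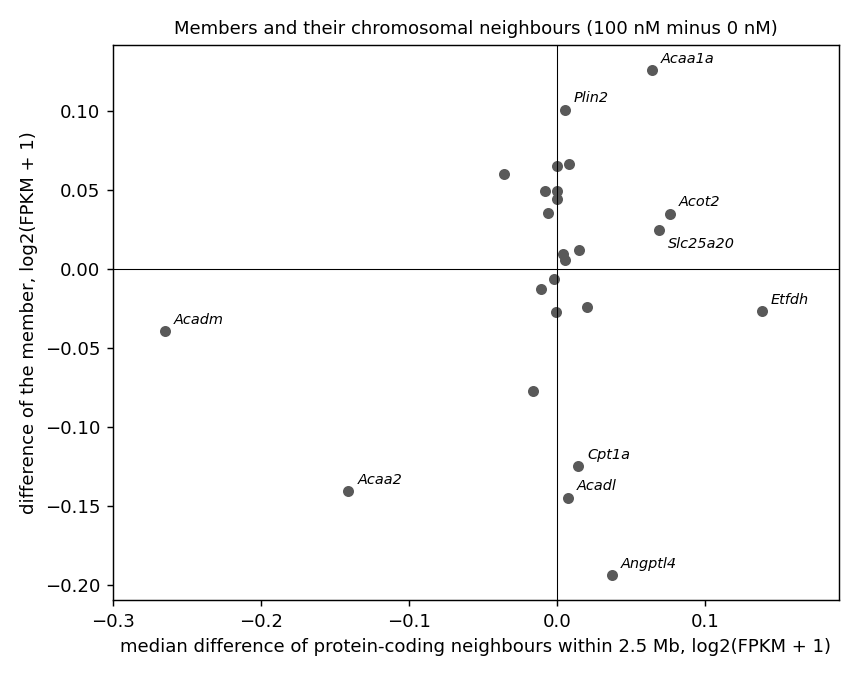
Difference of each tested member with at least 5 neighbours (vertical axis) against the median difference of its protein-coding neighbours within 2.5 Mb (horizontal axis), both 100 nM minus 0 nM PFOS on the log2(FPKM + 1) scale. Acaa2 shares the value of its neighbours at -0.14, Acadm lies at -0.04 with neighbours at -0.27, and Cpt1a, Acadl and Angptl4 are low with neighbours near 0.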

How the data were processed

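The authors deposited FPKM per gene and library, per the file headers, with 2 decimals and without counts, so depth is unknown. Low values gave no whole reads (23.2% to 24.4% within 0.1 of a whole multiple at the best scale). The tools named, per the submitters' processing notes, are HISAT2, StringTie and fastp, with the builds mm10 and GRCh38; the sources used here give neither versions nor how strand was counted. Of 28418 identifiers 28350 are in GENCODE M21 (GRCm38), which gave symbols. Testing used limma-trend (limma 3.58.1, R 4.3.3) for genes averaging 1 FPKM or more across all 6 libraries; the response was log2(FPKM + 1), the contrast 100 nM minus 0 nM, two-sided, with Benjamini-Hochberg adjustment over all 11741 genes and a threshold of 0.05, after a test on simulated data. Shared words are sequences of 31 bases that also occur in transcripts of other genes. All 32 members are accounted for, those past an unadjusted 0.05, with separate groups or among the 8 highest are given per library, and each list names its called genes or the smallest p. Members and lists were chosen with earlier results of these data known. The 18 alternatives covered scaling, pseudocount, filters, moderation, the replicate block and libraries left out. Python 3.11.15 was used for the rest.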

Additional observations from a re-analysis of the deposited data

How the results depend on the processing

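Over the 18 alternatives, the count of members past the limma threshold was 0 or 1. It was 1, Acadl, with median-of-ratios scaling, quantile normalization, FPKM rescaled to equal library sums, a filter at a mean of 5 FPKM, robust moderation, protein-coding genes alone and without replicate 1 at 0 nM, and 0 to 1 when any 1 library was left out. Members with non-overlapping groups numbered 6 to 10 with 1 library left out (10 without replicate 1 at 100 nM and 8 without replicate 3 at 0 nM) and 9 without replicate 3 of both groups. Fewer libraries separate more easily, and the share over all genes at these settings is not given here. These counts therefore have no background beside them. The members' median stayed between -0.007 and 0.023. Genes past the threshold over all tested numbered 487 as reported. More passed with protein-coding genes alone (653), a filter at a mean of 5 FPKM (593) and robust moderation (548). Fewer passed without a filter (204), without the trend (294), without replicate 3 of both groups (91) and with 1 library left out. That last count was 183, 142 and 290 without replicates 1, 2 and 3 at 100 nM, and 139, 122 and 144 without replicates 1, 2 and 3 at 0 nM. The cause was not tested. In the pathway lists the count was 1 as reported, 2 with quantile normalization, a filter at 5 FPKM or no trend, 3 with protein-coding genes alone and 0 without replicate 3 of both groups or any 1 library. With the replicate number as a block 58 genes, 0 members and 0 list genes passed. The values showed no sign that the replicate numbers pair the libraries: same-numbered libraries correlated at -0.053 to 0.007 in their deviations, different numbers at -0.029 to 0.072. Of 35 genes followed, 10 changed sign under some alternative, none past the threshold. Without replicate 3 of both groups it was -0.012 for Slc25a20, -0.018 for Acadvl, 0.022 for Acadm, 0.028 for Eci2 and 0.021 for Pex11a. With 1 library left out the difference ranged over -0.014 to 0.057 for Slc25a20, -0.006 to 0.079 for Crat, -0.018 to 0.03 for Acadvl, -0.017 to 0.043 for Acads, -0.043 to 0.021 for Eci2, -0.073 to 0.012 for Etfa, -0.018 to 0.037 for Etfb, -0.074 to 0.083 for Pex11a and -0.006 to 0.096 for Fabp5. The median difference of all genes lay between 0 and 0.007 over the settings. Depth is unknown, and 3 libraries a dose limit the precision.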
